A study of Mus musculus with 18 samples.

Results

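The 5 genes described here, Zbtb7b, Runx3, Gata3, Tox and Cd40lg, were chosen by name as regulators or products of the choice between the CD4 and the CD8 lineage, from the 55494 genes of the RNA count table, and all 5 had counts. The study profiled RNA and surface antibody tags of single thymocytes with 1 of 2 transgenic T cell receptors, OT2, which is restricted by MHC class II, or OT1, which is restricted by MHC class I. Bone marrow chimeras received 30% receptor-transgenic marrow marked CD45.1.2 and 70% CD45.1 competitor marrow, and 6 weeks later, at 14 weeks of age, thymocytes of the female B6 animals that were CD44 low, CD45.1.2 positive, Va2 positive and Vb5 positive were sorted. For each receptor there were 3 hosts. NegSelected hosts were RIPmOVA animals, in which the transgene Tg(Ins2-TFRC/OVA)296Wehi, held on C57BL/6, expresses the antigen from an insulin promoter. PosSelected hosts were wild type C57BL6/Ncr, and NoSelection hosts lacked MHC class II for OT2 and b2m for OT1. The hosts' genotypes cannot be read from the donor cells that were sequenced, and every cell carried a transgenic receptor, so no cell with a natural receptor repertoire stands beside them. There was 1 mouse per receptor and host, 6 in all, and cells were assigned to mice by hashtag.

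Thymocytes pass from a CD4-CD8- stage through a CD4+CD8+ stage and then become CD4 or CD8 single positive cells. Receptors that bind MHC class II lead to the CD4 lineage and receptors that bind MHC class I to the CD8 lineage. Zbtb7b (ThPOK) is the transcription factor that commits cells to the CD4 lineage, Runx3 is its counterpart for the CD8 lineage, and each is known to repress the other. Tox and Gata3 act upstream: Tox, an HMG box protein induced by receptor signals, is needed for CD4 lineage development, and Gata3, a zinc finger factor, is needed for Zbtb7b to be induced and also for earlier T cell stages. Cd40lg encodes CD40 ligand, a surface protein of helper T cells whose gene is a product of the CD4 lineage rather than a regulator of it.

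Cells were placed in 4 gates by their CD4 and CD8A antibody tags, which do not use the RNA of the 5 genes. The tags were counted by these 15-base barcodes, shown because the gates rest on them:
CD4 antibody barcode: AACAAGACCCTTGAG
CD8A antibody barcode: TACCCGTAATAGCGT
RefSeq promoter windows of 250 bases before a transcription start (GRCm38.p6) were at hand for 3 of the 5 genes, 5 windows in all. The windows that hold a RUNX hexamer, TGTGGT or TGCGGT on either strand, are shown because Runx3 and Zbtb7b are known to repress each other. Capitals mark the hexamer, which reads ACCACA where it lies on the opposite strand.
Runx3, chr4:135120395-135120644, plus strand: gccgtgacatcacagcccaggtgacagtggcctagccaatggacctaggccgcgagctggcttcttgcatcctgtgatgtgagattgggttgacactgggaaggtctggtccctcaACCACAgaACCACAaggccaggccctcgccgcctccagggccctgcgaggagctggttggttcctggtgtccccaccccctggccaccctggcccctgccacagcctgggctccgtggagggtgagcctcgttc
Zbtb7b, chr3:89387672-89387921, minus strand: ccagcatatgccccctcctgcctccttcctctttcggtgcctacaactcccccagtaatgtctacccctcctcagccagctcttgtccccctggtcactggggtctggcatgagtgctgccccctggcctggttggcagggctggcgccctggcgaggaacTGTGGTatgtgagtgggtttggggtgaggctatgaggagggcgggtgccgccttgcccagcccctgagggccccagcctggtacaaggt
In the Runx3 window the hexamers begin 134 and 126 bases before the start, and in the Zbtb7b window 89 bases before it. A RUNX hexamer lay in 2 of the 5 windows and in 18.6% of 32851 promoter windows of the same length. Of GATA hexamers, 4 were searched on either strand: AGATAA, its variant ending in G (AGATAG), the form with T first (TGATAA), and that form ending in G (TGATAG). One of them lay in 0 of the 5 windows and in 26.5% of all.

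The files held 1331 cells, 108 to 306 per mouse, with 525843 to 1867488 RNA UMIs per mouse and a median of 2756 to 5385 UMIs per cell. The OT1 mice were the deeper ones. Thresholds from a 2-component mixture gave 275 CD4+CD8- cells, 97 CD4-CD8+ cells, 851 CD4-CD8- cells and 108 CD4+CD8+ cells. Of the 1331 cells, 128 lay less than 0.5 log2 units from the CD4 threshold and 80 from that of CD8A. The CD4-CD8- gate had few antibody UMIs per cell, a median of 2693 against 5177 to 5883 in the other gates, so a cell can fall in it for want of tags. With each cell's antibody counts scaled to 1 total, 281 of its 851 cells moved, 86 of them to CD4+CD8-, 124 to CD4-CD8+ and 71 to CD4+CD8+. Values are therefore given for both gatings, called unscaled and scaled. Levels are CPM, the UMIs of a gene per 1000000 RNA UMIs of the same cells, and a level with fewer than 10 cells behind it is left out. Whether fewer cells of a type or less RNA per cell lies behind a level summed over cells cannot be told apart. Markers of preselection CD4+CD8+ cells (6 of 6 in the files) summed to 3353 to 7100 CPM in the unscaled CD4+CD8+ gate, against 54.5 to 1395 CPM in the 3 others. With scaled gates they summed to 788 to 7124 CPM in CD4+CD8+ cells of 5 mice, against 33.5 to 1654 CPM in the 3 others. Those ranges overlapped, so the markers did not set the scaled CD4+CD8+ gate apart in every mouse.

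Zbtb7b was found mostly in cells gated as CD4+CD8-. With unscaled gates its level in CD4+CD8- cells was 40.9 CPM in the OT2 NegSelected mouse, 73.2 in OT2 PosSelected, 27.6 in OT1 NegSelected, 35.3 in OT1 PosSelected and 31.9 in OT1 NoSelection. In CD4-CD8+ cells it was at 0 UMIs in the 4 mice with at least 10 such cells, and in CD4+CD8+ cells at 0 in the 3 OT2 mice. The CD4+CD8- levels thus lay above the CD4-CD8+ levels in 4 of 4 mice, OT1 mice included. Only in OT1 PosSelected was that level also above the floor of 3 UMIs over the CD4-CD8+ sum (8.70 CPM). The floor was 65.4 CPM in OT2 NegSelected, 43.9 in OT1 NegSelected and 47.3 in OT1 NoSelection, above their CD4+CD8- levels. Each of these mice alone thus shows no difference beyond the floor. Over those 4 mice the sums were 17 UMIs in CD4+CD8- cells and 0 in CD4-CD8+ cells, at least 6.16-fold higher when the floor of 3 UMIs over the CD4-CD8+ sum is used, and at least 13.7-fold higher with scaled gates. Per cell, a Zbtb7b UMI was seen in 44 of 275 CD4+CD8- cells (16.0%, exact Clopper-Pearson 95% interval 11.9 to 20.9%) at a median of 3174 UMIs, and in 0 of 97 CD4-CD8+ cells at a median of 5235 UMIs, which by the floor of 3 cells allows a share of up to 3.09%. With scaled gates the share was 56 of 344 (16.3%) in CD4+CD8- cells and 0 of 223 in CD4-CD8+ cells, which by the same floor allows up to 1.35%. Such intervals and floors cover counting error only, since PCR copies, cells of 1 mouse and shared RNA are not independent.

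The CD4-CD8- gate held Zbtb7b in a way that moved with the gating. With unscaled gates its CD4-CD8- level was 10.1 CPM in the OT2 NegSelected mouse, 44.3 in OT2 PosSelected, 2.41 in OT2 NoSelection, 0.914 in OT1 NegSelected, 0.787 in OT1 PosSelected and 0 in OT1 NoSelection. With scaled gates it was 24.98 CPM in the OT2 PosSelected mouse and at 0 in the other 5. Of the 61 cells with a Zbtb7b UMI, 44 lay in CD4+CD8- and 17 in CD4-CD8- with unscaled gates, against 56 and 2 with scaled gates, where the remaining 3 were CD4+CD8+. The gene missed the filter on low counts in the unscaled fit and was tested with scaled gates. There Zbtb7b was higher in CD4+CD8- cells than in CD4-CD8- cells by 4.67 on the log2 scale (SE 1.06, 6 of 6 mice higher, adjusted p = 0.00534, edgeR's quasi-likelihood test, threshold 0.05; 3.97e-10 to 0.200 over the other settings that tested it). It passed with unscaled gates and no filter (2.40, SE 0.53) and with thresholds 0.5 log2 units higher (3.31), and not with thresholds 0.5 lower (2.75), sums of at least 20 cells (1.97) or unscaled gates without the OT2 NegSelected mouse (2.72). Against CD4-CD8+ cells, all at 0, its scaled test missed the threshold. Without the filter it passed with scaled gates and missed the threshold with unscaled gates.

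**Figure D1:**
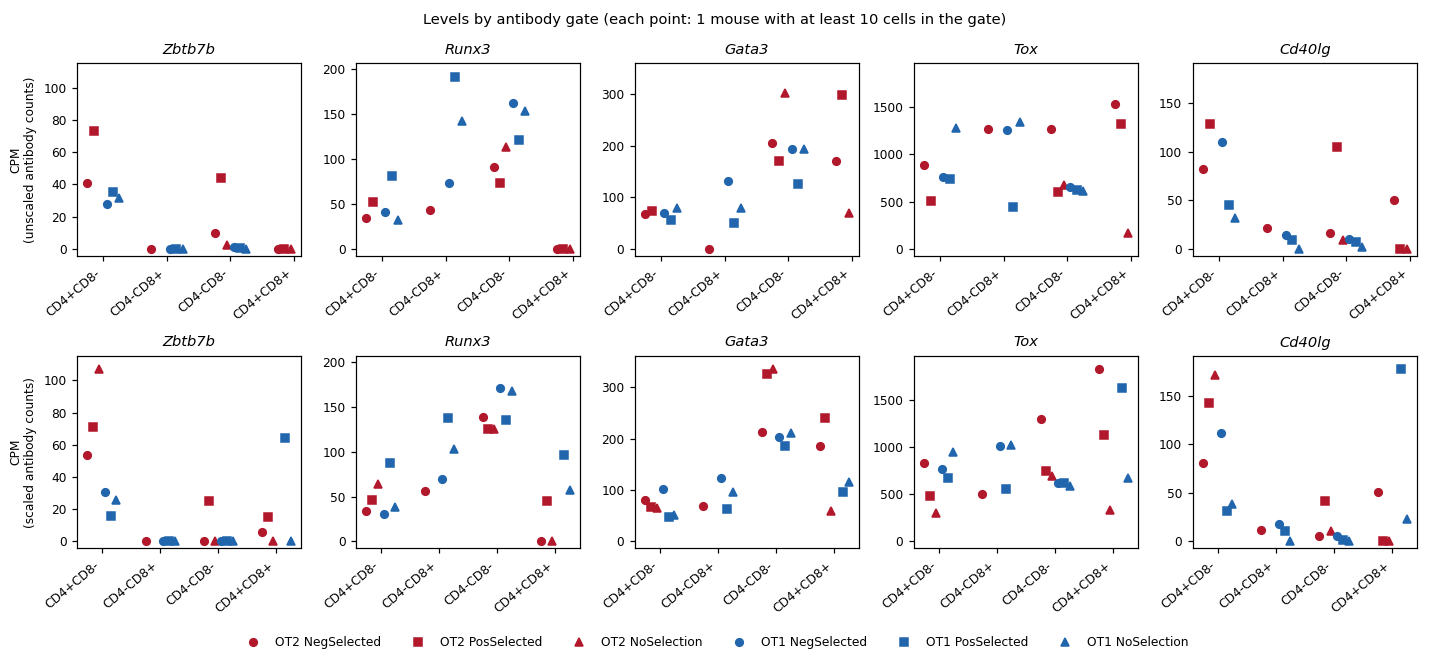
Level of each gene (CPM, linear axis) in each mouse by antibody gate, for sums of at least 10 cells. The upper row has unscaled gates and the lower row scaled gates. With unscaled gates, Zbtb7b points lie at 0 in CD4-CD8+ and CD4+CD8+ cells and Runx3 points at 0 in CD4+CD8+ cells. Gata3 points in unscaled CD4-CD8- cells run from 125 to 303 CPM. With scaled gates, CD4+CD8+ points reach 64.3 CPM for Zbtb7b and 96.5 CPM for Runx3.

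Cd40lg, too, was higher in CD4+CD8- than in CD4-CD8- cells. In CD4+CD8- cells it was at 81.7 CPM in the OT2 NegSelected mouse, 128 in OT2 PosSelected, 110 in OT1 NegSelected, 45.4 in OT1 PosSelected and 31.9 in OT1 NoSelection. In CD4-CD8+ cells it was at 21.8 CPM in OT2 NegSelected, 14.6 in OT1 NegSelected, 8.70 in OT1 PosSelected and 0 in OT1 NoSelection. The ranges of these levels did not overlap, and CD4+CD8- was the higher in 4 of 4 mice. Together these mice had 31 UMIs against 5, a pooled ratio of 6.74 (exact interval 2.60 to 22.2, counting error only). Within each of the 4 mice alone, the counting intervals of the gates overlapped. The CD4+CD8- level of OT1 NoSelection also lay below the floor of 3 UMIs over its CD4-CD8+ sum (47.3 CPM). In the fit with the mouse as a block, Cd40lg was higher in CD4+CD8- cells than in CD4-CD8- cells by 1.85 (log2, SE 0.46, 5 of 5 mice, adjusted p = 0.0139). That call was lost without the OT1 NegSelected (1.45), the OT1 PosSelected (1.75) or the OT2 NegSelected mouse (1.70). Scaled gates gave 3.69 (SE 0.68), past the threshold with all mice and without each mouse in turn. Against CD4-CD8+ cells the difference of 2.04 (SE 0.83) did not pass (adjusted p = 0.386), nor did 2.90 (SE 0.85) with scaled gates. With scaled gates and no filter it did (2.75).

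Cd40lg was seen in 67 of 275 CD4+CD8- cells (24.4%), in 5 of 97 CD4-CD8+ cells (5.15%), in 42 of 851 CD4-CD8- cells (4.94%) and in 6 of 108 CD4+CD8+ cells (5.56%). After each cell was thinned to 1000 UMIs these shares were 11.8%, 2.11%, 2.74% and 1.96%, so the CD4+CD8- gate was the highest at equal depth too. Like Zbtb7b, its CD4-CD8- level was high in the OT2 PosSelected mouse (104 CPM, against 1.74 to 16.8 CPM in the 5 other mice), and with scaled gates that mouse had 41.6 CPM against 0.694 to 10.7 CPM. No antibody to CD40 ligand was analysed here. Within the scaled CD4+CD8- gate of the OT2 NegSelected mouse, the 11 cells with a Cd40lg UMI had a median of 265 scaled CD4 tags, 4.70 CD24 tags and 186 CD62L tags, and the 30 cells without one had 139, 47.3 and 75.2. CD24 is lost and CD62L is gained as single positive thymocytes mature. In the OT2 PosSelected mouse, the 58 cells with a Cd40lg UMI and the 137 without had medians of 20.4 and 20.1 CD24 tags and of 173 and 144 CD62L tags, so the contrast was not seen in that mouse.

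Of 4 members tested with unscaled gates, 0 were called between CD4+CD8- and CD4-CD8+ cells, where 48 of 5386 genes were (0.891%). With scaled gates 0 of 5 members were called, beside 153 of 4710 genes (3.25%). Between CD4+CD8- and CD4-CD8- cells, 3 of 4 members were called with unscaled gates, beside 5.35% of genes, and 4 of 5 with scaled gates, beside 11.1%. These were Cd40lg, Runx3 and Gata3, and with scaled gates Zbtb7b as well. The comparisons with CD4-CD8- cells were added after the data were seen.

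Runx3 was low in CD4+CD8- cells and in CD4+CD8+ cells. In CD4+CD8- cells it was at 34.1 CPM in the OT2 NegSelected mouse, 52.6 in OT2 PosSelected, 41.4 in OT1 NegSelected, 80.6 in OT1 PosSelected and 31.9 in OT1 NoSelection. In CD4-CD8+ cells it was at 43.6 CPM in OT2 NegSelected, 73.1 in OT1 NegSelected, 191 in OT1 PosSelected and 142 in OT1 NoSelection. The ranges of the groups overlapped, while within each of the 4 mice CD4+CD8- was the lower. Only in OT1 PosSelected were the counting intervals of these gates apart (46.1 to 131 and 148 to 244 CPM, unscaled gates). The CD4-CD8+ level of OT2 NegSelected rests on 2 UMIs in 1 of 14 cells, below the floor of 3 UMIs (65.4 CPM). In CD4-CD8- cells Runx3 was at 90.9 CPM in OT2 NegSelected, 72.8 in OT2 PosSelected, 113 in OT2 NoSelection, 163 in OT1 NegSelected, 121 in OT1 PosSelected and 153 in OT1 NoSelection. Each of 5 mice was lower in CD4+CD8- than in CD4-CD8- cells. Runx3 fell by 1.03 (log2, SE 0.29, adjusted p = 0.0332) in CD4+CD8- relative to CD4-CD8- cells, and with scaled gates by 1.44 (SE 0.32), also past the threshold. The unscaled call was lost without the OT1 NegSelected (-0.84), the OT1 NoSelection (-0.92) or the OT2 NegSelected mouse (-1.02), and the scaled one held without each of the 6 mice in turn. Relative to CD4-CD8+ cells the value was -1.03 (SE 0.36, adjusted p = 0.247), and -0.77 (SE 0.38) with scaled gates, neither past the threshold. CD4-CD8+ and CD4-CD8- cells differed by -0.00 (SE 0.31, adjusted p = 1.00), an estimate whose SE allows differences of either sign.

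In CD4+CD8+ cells Runx3 was at 0 UMIs in the 3 OT2 mice, against 97 UMIs in their CD4-CD8- cells, which is at least 6.00-fold higher in CD4-CD8- cells (floor of 3 UMIs over the sum). CD4+CD8- cells had 28 UMIs in the 2 OT2 mice with both gates, at least 2.13-fold higher than CD4+CD8+ cells. Both differences and that of CD4-CD8+ cells passed edgeR's test (adjusted p = 0.000886, 0.0216 and 0.00252), and Runx3 was the 1 member of 4 called in each of the comparisons with CD4+CD8+ cells, beside 6.89% of genes for CD4-CD8-, 6.57% for CD4+CD8- and 5.11% for CD4-CD8+. The CD4+CD8- call was lost without each of the 3 OT2 mice and with thresholds 0.5 log2 units higher or lower, and the CD4-CD8+ call with thresholds 0.5 higher or lower. The CD4-CD8+ comparison shared 1 mouse between the gates, with 2 UMIs against 0. With scaled gates, where OT1 mice enter, Runx3 in CD4+CD8+ cells was at 0 CPM in OT2 NegSelected, 45.02 in OT2 PosSelected, 0 in OT2 NoSelection, 96.5 in OT1 PosSelected and 57.5 in OT1 NoSelection. The OT1 mice thus had Runx3 in that gate, and only the difference from CD4-CD8- cells passed (2.27, SE 0.44). With scaled gates 3 of 5 members (Runx3, Gata3 and Cd40lg) were called between CD4-CD8- and CD4+CD8+ cells, beside 12.0% of genes, and 0 of 5 for CD4+CD8- (9.94% of genes) or CD4-CD8+ (4.71%) against CD4+CD8+ cells. Cd40lg there was lower in CD4-CD8- cells by 2.77 on the log2 scale (SE 0.88), while unscaled gates gave 0.18 (SE 0.94), so its direction turned with the gating.

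A Runx3 UMI was seen in 40 of 275 CD4+CD8- cells (14.5%), 44 of 97 CD4-CD8+ cells (45.4%), 373 of 851 CD4-CD8- cells (43.8%) and 3 of 108 CD4+CD8+ cells (2.78%). Thinned to 1000 UMIs the shares were 4.80%, 12.6%, 12.4% and 0.980%, and their order was the same. These shares pool both receptors: 76 of the 97 CD4-CD8+ cells were OT1 cells, against 79 of the 275 CD4+CD8- cells. In OT1 cells a Runx3 UMI was seen in 19.0% of CD4+CD8- and 55.3% of CD4-CD8+ cells. In OT2 cells it was seen in 12.8% (25 of 196) and 9.52% (2 of 21), so the pooled contrast was that of OT1 cells. Markers of gamma delta T cells (4 of 7 in the files, all with counts in CD4-CD8- cells) had their highest median over mice in CD4-CD8- cells, 949 CPM. Their median in CD4-CD8+ cells was 213 CPM, while the shares with Runx3 were similar in these gates. They summed to 643 to 2090 CPM in CD4-CD8- cells, 153 to 716 in CD4-CD8+ cells, 6.81 to 323 in CD4+CD8- cells and 10.0 to 34.5 in CD4+CD8+ cells, where Trgc1 and Trgc2 were at 0. The part of such cells in the levels of Runx3 and Gata3 was not tested.

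Gata3 was lower in both single positive gates than in CD4-CD8- cells. In CD4+CD8- cells its level was 68.1 CPM in the OT2 NegSelected mouse, 73.2 in OT2 PosSelected, 68.9 in OT1 NegSelected, 55.4 in OT1 PosSelected and 79.8 in OT1 NoSelection. In CD4-CD8+ cells it was 0 CPM in OT2 NegSelected (14 cells), 132 in OT1 NegSelected, 49.3 in OT1 PosSelected and 78.8 in OT1 NoSelection. In CD4-CD8- cells it was 205 CPM in OT2 NegSelected, 171 in OT2 PosSelected, 303 in OT2 NoSelection, 194 in OT1 NegSelected, 125 in OT1 PosSelected and 194 in OT1 NoSelection. The CD4+CD8- and CD4-CD8- ranges did not overlap. Gata3 fell by 1.36 (log2, SE 0.27, 5 of 5 mice lower, adjusted p = 0.00164) in CD4+CD8- relative to CD4-CD8- cells, and by 1.83 (SE 0.24, 6 of 6 mice lower) with scaled gates. This difference passed in each of the settings in which it was run, each mouse left out included. Runx3 for CD4-CD8- minus CD4+CD8+ also kept its call in the 17 settings compared with its unscaled fit.

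In CD4-CD8+ relative to CD4-CD8- cells, Gata3 fell by 1.40 (SE 0.33, 4 of 4 mice lower, adjusted p = 0.0238) and, with scaled gates, by 1.30 (SE 0.24). It was the 1 member of 4 called there with unscaled gates, beside 1.62% of genes, and the 1 of 5 with scaled gates, beside 3.63%. The unscaled call was lost without the OT1 NoSelection (-1.43), the OT1 PosSelected (-1.37) or the OT2 NegSelected mouse (-1.14). Between the single positive gates, CD4+CD8- minus CD4-CD8+, Gata3 differed by 0.03 (SE 0.42), and by -0.53 (SE 0.31) with scaled gates, so higher Gata3 in CD4+CD8- cells was not detectable here. In CD4+CD8+ cells it was at 171 CPM in OT2 NegSelected, 299 in OT2 PosSelected and 69.1 in OT2 NoSelection, a wide range. CD4-CD8- cells were higher than these by 0.51 (SE 0.36, adjusted p = 0.485), and by 0.90 (SE 0.25, past the threshold) with scaled gates.

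Tox passed the test between no pair of gates. In CD4+CD8- cells it was at 886 CPM in the OT2 NegSelected mouse, 503 in OT2 PosSelected, 758 in OT1 NegSelected, 741 in OT1 PosSelected and 1276 in OT1 NoSelection. In CD4-CD8+ cells it was at 1264 CPM in OT2 NegSelected, 1257 in OT1 NegSelected, 438 in OT1 PosSelected and 1340 in OT1 NoSelection. In CD4-CD8- cells it ran from 602 to 1265 CPM, with a median of 638, and in CD4+CD8+ cells it was 1536 in OT2 NegSelected, 1317 in OT2 PosSelected and 173 in OT2 NoSelection. The ranges of all 4 gates overlapped. The fitted difference of CD4+CD8- from CD4-CD8+ cells was -0.17 (SE 0.29) and that from CD4-CD8- cells 0.06 (SE 0.25), and Tox was called in none of the 6 gate comparisons with either gating. The differences from CD4+CD8+ cells were the larger ones with scaled gates. Summed over shared mice, Tox in CD4+CD8- cells was 0.405 of its CD4+CD8+ level (exact interval 0.339 to 0.484, counting error only, lower in 2 of 2 mice) with unscaled gates and 0.487 (lower in 4 of 5) with scaled gates. CD4-CD8+ cells were at 0.439 (lower in 2 of 3) and CD4-CD8- cells at 0.536 (lower in 4 of 5) with scaled gates. The fitted CD4+CD8- minus CD4+CD8+ difference was -0.09 (SE 0.35), and -0.55 (SE 0.29) with scaled gates, and its sign turned without the OT2 NegSelected (0.28) or the OT2 PosSelected mouse (0.42). The OT2 NoSelection CD4+CD8+ level stood apart from those of the 2 other OT2 mice by more than counting error. A Tox UMI was seen in 64.7% of CD4+CD8- cells and 73.1% of CD4+CD8+ cells, and after thinning in 36.2% and 53.9%.

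**Figure D2:**
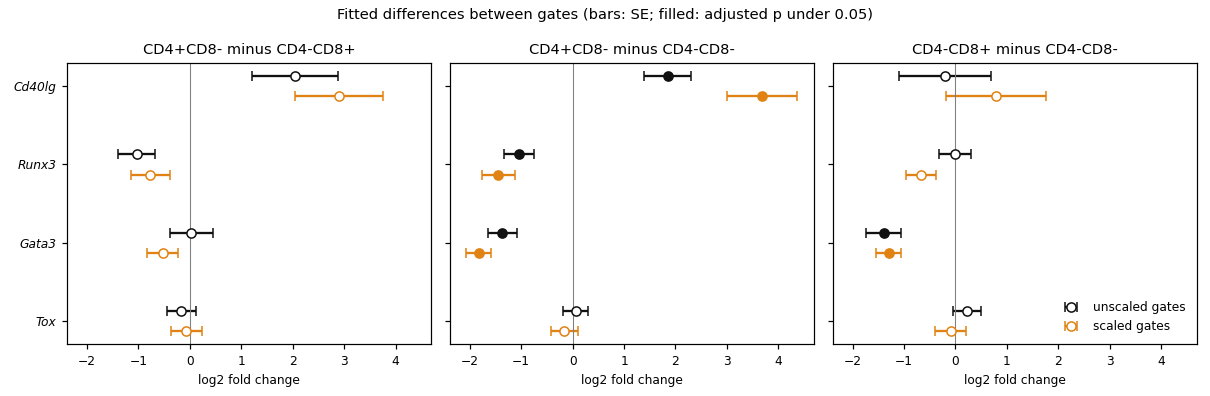
Log2 fold changes with their SE from edgeR for Cd40lg, Runx3, Gata3 and Tox, with unscaled and scaled gates. The comparisons shown are CD4+CD8- minus CD4-CD8+, CD4+CD8- minus CD4-CD8- and CD4-CD8+ minus CD4-CD8-. Zbtb7b and the comparisons with CD4+CD8+ cells are not shown. Gata3 lies below 0 in both comparisons of a single positive gate with CD4-CD8- cells (-1.36 and -1.40, unscaled), and Tox lies near 0.

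The gates can be set aside by sorting cells into bins of the log2 ratio of CD4 to CD8A tags, which needs no scaling to a cell's total. A count of 1 was added to each tag, which draws cells with few tags toward 0. Median antibody UMIs ran from 3149 to 4676 over the bins in OT2 cells and from 3612.5 to 4968 in OT1 cells. Bins near 0 can hold both CD4-CD8- and CD4+CD8+ cells. Zbtb7b was at 0 in the bins under -3 and from -3 to -1 in both receptors. In the bins -1 to 1, 1 to 3 and over 3 it was at 9.30, 24.2 and 86.6 CPM in OT2 cells and at 2.54, 9.72 and 41.5 CPM in OT1 cells. Cd40lg was at 9.33, 5.46, 20.2, 133 and 135 CPM over the 5 bins in OT2 cells and at 7.51, 4.98, 10.7, 22.7 and 99.5 CPM in OT1 cells. The sums over OT2 mice hide opposite orders for Cd40lg. In the OT2 NegSelected mouse it was at 29.2 CPM (18 cells) from 1 to 3 and 120 (21 cells) over 3, and in OT2 PosSelected at 198 (50 cells) and 133 (145 cells). Zbtb7b was higher over 3 than from 1 to 3 in both of these mice, at 71.8 against 0 CPM and at 85.7 against 34.1 CPM. Gata3 was highest in the middle: 37.3, 240, 268, 88.8 and 54.1 CPM in OT2 cells and 53.8, 165, 198, 113 and 66.3 CPM in OT1 cells. Runx3 was at 46.6, 81.9, 94.6, 28.3 and 50.5 CPM in OT2 cells and at 139, 130, 161, 93.9 and 66.3 CPM in OT1 cells. OT1 cells had the higher level in each bin, with overlapping intervals in the bins from -3 to -1 and over 3. Tox was at 159, 1223, 890, 949 and 370 CPM in OT2 cells and at 543, 631, 712, 706 and 763 CPM in OT1 cells. These are sums over 3 mice per receptor, given as a description with no test, and the bins were added after the data were seen.

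**Figure D3:**
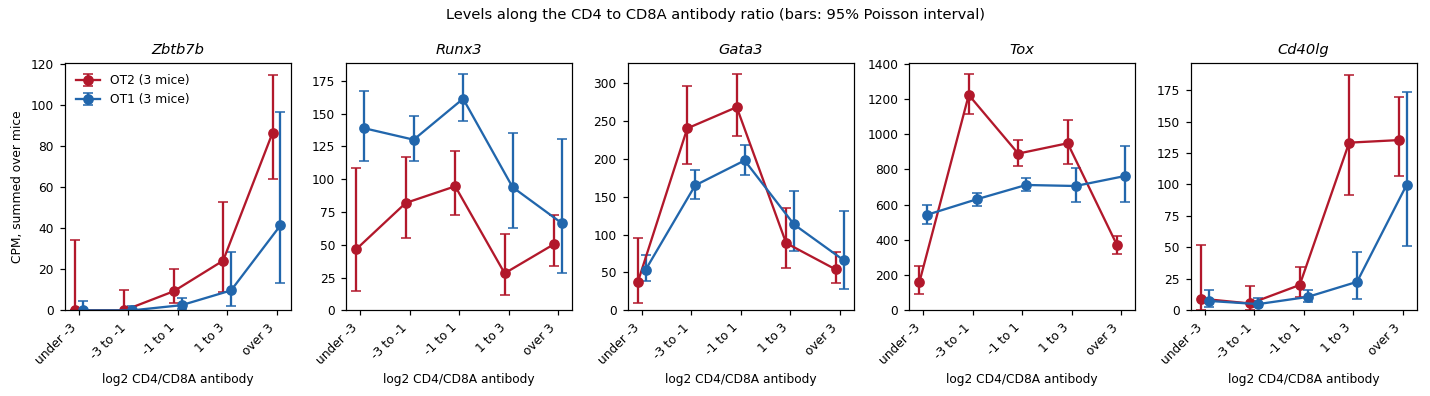
Level of each gene (CPM) by bin of the log2 ratio of CD4 to CD8A antibody counts, for OT2 and OT1 cells, with exact Poisson 95% intervals. Zbtb7b is at 0 in both bins below -1, and Gata3 is highest between -3 and 1 in both receptors.

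Over all cells of a mouse, Zbtb7b and Cd40lg were higher in OT2 than in OT1 mice. Zbtb7b was at 15.3 CPM in OT2 NegSelected, 57.1 in OT2 PosSelected and 9.51 in OT2 NoSelection, against 2.35 in OT1 NegSelected, 4.30 in OT1 PosSelected and 1.07 in OT1 NoSelection. Cd40lg was at 39.0 CPM in OT2 NegSelected, 111 in OT2 PosSelected and 22.8 in OT2 NoSelection, against 15.7, 15.6 and 3.21 CPM in the OT1 mice with the same hosts. The levels of the receptors did not overlap for either gene, but counting intervals of some mice did. For Zbtb7b these were OT2 NoSelection (3.09 to 22.2 CPM, 5 UMIs) and OT1 PosSelected (1.86 to 8.47, 8 UMIs), for example. For Cd40lg they were OT2 NoSelection (11.8 to 39.9) and OT1 NegSelected (9.57 to 24.2). The Zbtb7b levels of OT1 NegSelected and OT1 NoSelection rest on 3 and 2 UMIs. Zbtb7b was higher in OT2 mice by 3.30 (log2, SE 0.46, adjusted p = 0.0176) and Cd40lg by 2.28 (SE 0.36, adjusted p = 0.0260), each in 3 of 3 hosts, in a fit of receptor and host with 2 residual degrees of freedom. These were 2 of 5 members called, beside 1.07% of 9092 genes. The Zbtb7b call was lost without OT1 NegSelected (3.52), OT1 PosSelected (2.73), OT2 NegSelected (3.53) or OT2 PosSelected (2.75), and the Cd40lg call without OT1 PosSelected (1.73) or OT2 PosSelected (1.76).

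Runx3 went the other way: 57.7 CPM in OT2 NegSelected, 58.4 in OT2 PosSelected and 95.1 in OT2 NoSelection, against 146 in OT1 NegSelected, 128 in OT1 PosSelected and 148 in OT1 NoSelection. The levels of the receptors did not overlap, though the counting intervals of OT2 NoSelection (70.6 to 125 CPM) and OT1 PosSelected (113 to 146) did. The difference of -1.06 (SE 0.20, 3 of 3 hosts) missed the threshold (adjusted p = 0.0530) and passed in 7 of 11 other settings. Gata3 (0.09, SE 0.19) and Tox (0.13, SE 0.20) were not called. The make-up by gate moved with the receptor. CD4+CD8- cells were 23.7, 57.1 and 8.33% of the OT2 NegSelected, PosSelected and NoSelection cells, against 9.31, 16.3 and 4.58% of the OT1 ones (unscaled gates). The gamma delta T markers summed to 274 to 833 CPM in OT2 mice and 700 to 1837 CPM in OT1 mice. The NoSelection hosts of the receptors lack different genes, so that part of the receptor difference cannot be told apart from the host genotype.

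Within 1 gate no member passed for the receptor with all mice and the filter on low counts. In CD4-CD8- cells, the 1 unscaled gate with at least 10 cells in all 6 mice, OT2 minus OT1 was 2.54 (SE 0.62, adjusted p = 0.135) for Cd40lg and -0.70 (SE 0.21, adjusted p = 0.298) for Runx3, and 0 of 4 members were called beside 0.724% of genes. Cd40lg did pass there without the filter (2.48) and without the OT1 NoSelection (2.60), the OT2 NegSelected (3.44) or the OT2 NoSelection mouse (2.55), and Zbtb7b without the filter (4.58). In scaled CD4+CD8- cells Cd40lg differed by 1.29 (SE 0.44) and was not called. Zbtb7b there was at 53.6 CPM in OT2 NegSelected, 71.2 in OT2 PosSelected and 107 in OT2 NoSelection, against 30.5, 15.8 and 25.8 CPM in the OT1 mice with the same hosts. Those ranges did not overlap, but the OT1 levels rest on 3, 4 and 2 UMIs, and that of OT2 NoSelection on 5 UMIs in 3 of 10 cells. Between receptors the counting intervals overlapped for NegSelected (23.2 to 106 and 6.29 to 89.1 CPM) and NoSelection (34.7 to 249 and 3.13 to 93.3). They did not for PosSelected (51.3 to 96.3 and 4.31 to 40.5). The gene missed the filter of that fit. Zbtb7b was therefore seen in CD4+CD8- cells of OT1 mice also, whose receptor is restricted by class I.

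**Figure D4:**
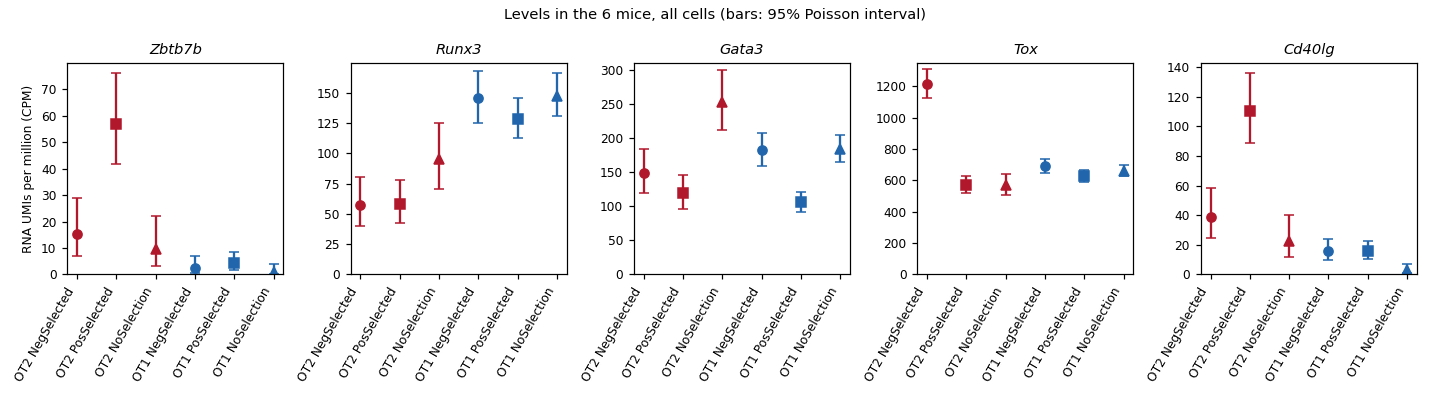
Level of each gene (CPM, all cells) in the 6 mice with exact Poisson 95% intervals. OT2 PosSelected has the highest Zbtb7b (57.1 CPM) and Cd40lg (111 CPM), OT2 NegSelected the highest Tox (1216 CPM), and all OT1 mice have more Runx3 than the OT2 mice.

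Between hosts, none of the 5 genes passed with all mice and the filter on low counts. NegSelected minus PosSelected called 0 of 9092 genes (0%; 418 at an unadjusted p under 0.05, 5 by DESeq2), PosSelected minus NoSelection called 1 (0.0110%), and NegSelected minus NoSelection called 0 (0%; 236 unadjusted, 0 by DESeq2). The Zbtb7b value for NegSelected minus PosSelected was -1.67 (SE 0.52, lower in 2 of 2 receptors, adjusted p = 0.929), and that of Cd40lg was -0.90 (SE 0.40). For PosSelected minus NoSelection, Cd40lg was at 2.32 (SE 0.45, adjusted p = 0.163), Zbtb7b at 2.43 (SE 0.56, adjusted p = 0.258) and Gata3 at -0.89 (SE 0.23, adjusted p = 0.332), each with the same sign in both receptors. Without the filter on low counts these 3 values (2.33, 2.44 and -0.88) passed. Cd40lg also passed without the OT1 PosSelected mouse (2.78) and without cells above the 95th percentile of UMIs (2.37), and Gata3 without the OT1 NoSelection mouse (-1.15) and without those cells (-1.07). The Cd40lg ratio of PosSelected to NoSelection was 4.84 (exact interval 2.64 to 9.72) in OT2 mice and 4.85 (1.98 to 14.3) in OT1 mice, and that of Gata3 was 0.471 (0.359 to 0.617) and 0.575 (0.480 to 0.687). These compare single mice and their intervals cover counting error only.

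Tox was at 1216 CPM in the OT2 NegSelected mouse, against 572 in OT2 PosSelected and 572 in OT2 NoSelection, a ratio to PosSelected of 2.13 (1.89 to 2.39). In OT1 mice it was at 691 CPM in NegSelected, 627 in PosSelected and 662 in NoSelection, a ratio of 1.10 (1.01 to 1.20). Whether the receptors differ in this could not be tested with 1 mouse each. Within CD4-CD8- cells the host comparisons called 0 of 8427 genes for NegSelected minus PosSelected (0%; 267 unadjusted, 0 by DESeq2) and 0 for PosSelected minus NoSelection (0%; 335 unadjusted, 3 by DESeq2). Cd40lg there was at 2.93 (SE 0.76, adjusted p = 0.527) for PosSelected minus NoSelection, and passed without the filter (2.91), without OT1 PosSelected (4.04) or without OT2 NegSelected (2.89). Gata3 was at -0.69 (SE 0.25) for PosSelected minus NoSelection, and at -0.13 (SE 0.28) with scaled gates. Its lower level in whole PosSelected mice went with a smaller CD4-CD8- share, 35.8% of cells in PosSelected against 62.0% in NoSelection for OT2, and 62.4% against 90.2% for OT1, and the part of that share was not tested.

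The difference of CD4+CD8- from CD4-CD8+ cells was set between receptors by an interaction term. It called 3 of 6764 genes with unscaled gates (0.0444%) and 0 of 6409 with scaled ones (0%; 348 at an unadjusted p under 0.05; DESeq2 called 0 with unscaled gates), and 0 of 5 members with either. The Runx3 term, OT2 minus OT1, was 1.58 (SE 1.18) and 0.18 (SE 1.00) with scaled gates, that of Cd40lg -1.03 (SE 2.03) and 0.81 (SE 1.94), and that of Tox -0.39 (SE 0.54) and 0.77 (SE 0.55). The OT2 side rests on the 14 CD4-CD8+ cells (25 with scaled gates) of the NegSelected mouse, the 1 OT2 mouse with at least 10, so such terms were poorly measured.

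Runx3 and Zbtb7b were seldom seen in the same cell. A Runx3 UMI was found in 8 of 61 cells with Zbtb7b (13.1%, 95% interval 5.84 to 24.2%, median of 3341 UMIs) and in 452 of 1270 cells without (35.6%, 33.0 to 38.3%, median of 4130.5 UMIs). Within the scaled CD4+CD8- gate the shares were 14.3% (8 of 56) and 14.2% (41 of 288), with overlapping intervals (6.38 to 26.2% and 10.4 to 18.8%). Cd40lg was found in 26.2% of cells with Zbtb7b and 8.19% of those without, and within the scaled CD4+CD8- gate in 23.2% and 26.0%. Tox was found in 88.8% of cells with Gata3 and 70.1% of cells without, which had median depths of 5057 and 3567.5 UMIs, and in 48.8% and 40.9% once thinned. Cells are not replicates, so these are descriptions.

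The genes of the CD4 list (18 genes, the members Zbtb7b, Gata3, Tox and Cd40lg among them) and of the CD8 list (18 genes with Runx3) showed which neighbours moved in the same comparisons. Between CD4+CD8- and CD4-CD8+ cells, 1 of 16 tested CD4 list genes was called higher (Ets1, a T cell transcription factor, 0.78, SE 0.19) and 0 lower, with a median of 0.34 against 0.03 over all genes. In the CD8 list 1 of 15 was higher (Stat5a, 1.99, SE 0.49) and 5 were lower, with a median of -1.03. The lower ones were the coreceptor genes Cd8a (-3.95, SE 0.45) and Cd8b1 (-3.11, SE 0.39), the integrin gene Itgae (-4.42, SE 0.86), the cytotoxic granule gene Nkg7 (-3.09, SE 0.37) and the chemokine gene Ccl5. With scaled gates 3 CD4 list genes were higher (Ccr7, Cd4 and Ets1), 1 was lower (Myb), and the same 5 CD8 list genes were lower. The gates were set by CD4 and CD8A tags, so gate differences in the coreceptor genes Cd4, Cd8a and Cd8b1 follow from the gating. Here and below, these genes are part of the list counts and medians.

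Relative to CD4-CD8- cells, CD4+CD8- cells had 7 of 16 CD4 list genes higher and 3 lower, with a median of 0.27 against 0.01 over all genes. Beside Cd40lg the higher ones were Cd4 (2.17, SE 0.40), the homing receptor Ccr7 (1.52, SE 0.24), Itm2a (1.35, SE 0.36), the chromatin organiser Satb1 (1.31, SE 0.26), Ets1 (0.93, SE 0.16) and Lef1 (0.76, SE 0.18). Beside Gata3 the lower ones were Myb (-3.52, SE 0.36), a factor of early thymocytes, and the E protein gene Tcf12 (-0.65, SE 0.18). Of 15 CD8 list genes 1 was higher, Il7r (1.69, SE 0.37), and 6 were lower with a median of -0.42: Runx3, Cd8a, Cd8b1, Nkg7, Itgae and Ccl5. For OT2 minus OT1 over whole mice the CD4 list had 3 of 18 higher (Cd4 at 2.83, SE 0.19, with Zbtb7b and Cd40lg) and the CD8 list had 1 of 16 lower (Itgae, -2.84, SE 0.23). Between hosts 0 genes of either list were called over whole mice. The lists were written with earlier results of these data known, so their counts are no independent evidence of a direction.

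Over the 18 sums of a mouse and a gate, which share mice and differ in depth, the genes most like each member were ranked by Pearson's r of log2(CPM + 10) among 3538 genes with a mean of at least 50 CPM, as a description. The genes most like Zbtb7b included Slfn2 (r = 0.85), Gm20400 (0.83), Tnip1 and Bach2, and its r with Cd40lg was 0.84. Cd40lg was most like Gm20400 (0.81), L3mbtl3, Itgb2, Sat1 and Slfn2. Runx3 was most like Cd7 (0.91), Rps6 (0.88), Rps12, Rpl7a and Rpl15, of which the last 4 encode ribosomal proteins. Gata3 was most like Cstf2 (0.91), Aldh2 (0.90), Mrfap1, Epn1 and Trerf1, and Tox was most like Ccr4 (0.82), Lmo4, Cd5, Med8 and Csnk2a1. With scaled gates (21 sums, 3494 genes) only Slfn2 for Zbtb7b, Rpl15 and Rpl7a for Runx3 and Csnk2a1 for Tox stood in both sets of 5, and r of Zbtb7b with Cd40lg was 0.86. The r of Zbtb7b with Runx3 was 0.01 with unscaled and -0.16 with scaled gates. When the levels of a member in the 18 sums were put in order, 17 pairs of neighbours were formed. All 17 overlapped in their counting intervals for Zbtb7b, Runx3, Gata3 and Cd40lg, and 16 of 17 for Tox. Neighbours in a sorted order are close by construction, so the overlap does not show that levels farther apart are alike.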

How the data were processed

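The members and the gene lists were chosen with earlier results of these data known. RNA and antibody tags of 6 mice were analysed; the T cell receptor libraries were not used here. The authors deposited whole-number UMI counts per gene and cell and per antibody and cell, without normalization. Reads had been processed with Cell Ranger 8.0.1 and Seurat on the mm10 build, as the submitters' processing notes list them; the tool for hashtags and the filters on cells and doublets are not given in the sources used here. No cell was removed (lowest gene number 506, highest mitochondrial share 9.94%), no doublet caller was run, and mice shared 0 cell barcodes. The labels disagree on the OT2 NoSelection host, MHC class II knockout in the treatment and B2m knockout in a comment, and the treatment was used.

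Gates were set at the crossing of a 2-component normal mixture on log2(antibody count + 1), at 94.7 CD4 and 181 CD8A counts. Scaling to the median antibody total was an alternative. RNA counts were summed per mouse, or per mouse and gate with at least 10 cells, and tested two-sided with edgeR 4.0.16 in R 4.3.3 (quasi-likelihood, TMM, filterByExpr, Benjamini-Hochberg adjustment over all genes tested, threshold 0.05), checked on simulated data. Gate fits had the mouse as a block; whole-mouse and within-gate fits had receptor and host. The SE is the size of the log2 fold change divided by the square root of F. Separate samples here are separate mice, 1 per receptor and host, so 2 mice per host and 3 per receptor carry the spread. Ratios of counts have exact 95% intervals; a count of 0 allows up to 3. Alternatives were DESeq2 1.42.0, RLE size factors, no filter, each mouse left out, 5 or 20 cells per sum, thresholds 0.5 log2 units apart, thinning to 1000 UMIs (25 shallower cells left out) or 2000, receptor and host terms in place of the mouse, and no cells above the 95th percentile of UMIs. The named genes were the 5 members, both lists and the 5 genes most like each member by Pearson's r; of these the text prints a selection of values, and 1 of the genes most like Zbtb7b is not reported here.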

Additional observations from a re-analysis of the deposited data

Results flagged for a closer look

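In each gate with at least 4 mice, and over all cells, the mouse farthest from the others was marked where its gap to the nearest mouse exceeded Dixon's 95% critical value. Of 40 groups of mice, 12 were marked; chance marks about 1 in 20, and the groups of 1 gene share mice and cells. The groups hold different receptors and hosts, so a mouse that stands apart may also be 1 whose condition differs.

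The OT2 PosSelected mouse was marked for Zbtb7b over all cells (57.1 CPM, next 15.3), in CD4-CD8- cells with unscaled gates (44.3, next 10.1) and in CD4-CD8- cells with scaled gates (24.98, the others at 0). The same mouse was marked for Cd40lg over all cells (111 CPM, next 39.0) and in CD4-CD8- cells with unscaled (104, next 16.8) and scaled gates (41.6, next 10.7). The OT2 NegSelected mouse was marked for Tox over all cells (1216 CPM, next 691) and in CD4-CD8- cells with unscaled (1265, next 678) and scaled gates (1292, next 749). The OT1 PosSelected mouse was marked low for Tox in unscaled CD4-CD8+ cells (438 CPM, next 1257). It was marked high in scaled CD4+CD8+ cells, where it had 16 cells, for Zbtb7b (64.3 CPM, next 15.0) and Cd40lg (177 CPM, next 50.4). The 4 Zbtb7b UMIs there came from 1 cell and the 11 Cd40lg UMIs from 5 cells.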

How the results depend on the processing

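Gata3 in CD4+CD8- against CD4-CD8- cells passed the test in every setting run, and Tox was called in none. The 5 genes' fitted differences had 663 results with the same direction and call as reported, 38 with the call lost, 26 with a call gained and 89 with the sign turned, over all settings. In 87 of the 89, spread over 25 differences with the 2 others, neither value passed the test. The 2 others were Cd40lg for CD4-CD8- minus CD4+CD8+ with scaled antibody counts, with or without the filter. The cause was not tested. Below, 5 or 20 cells is the lowest number in a sum, and deep cells are those above the 95th percentile of UMIs of their mouse. The 7.93 of Gata3 and the 6.54 and 6.76 of Cd40lg rest on a gate at 0 UMIs and are no bound. For Gata3, in CD4+CD8- minus CD4-CD8+ (0.032) it was -0.0072 with RLE size factors, -0.077 with higher thresholds, -0.53 with scaled counts, -0.24 with thinned cells, -0.55 with scaled counts and no filter and -0.23 to 0.28 as each mouse was left out. In CD4+CD8- minus CD4+CD8+ (-0.86) it was 0.59 with higher thresholds. In CD4-CD8+ minus CD4+CD8+ (-0.89) it was 0.66 with higher thresholds. In CD4-CD8- minus CD4+CD8+ (0.51) it was -0.11 to 0.93 as each mouse was left out. In the gate-by-receptor term (7.93) it was -0.78 with higher thresholds. In whole-mouse OT2 minus OT1 (0.087) it was -0.061 with deep cells left out and -0.10 to 0.30 as each mouse was left out. In NegSelected minus PosSelected within CD4-CD8- cells (0.43) it was -0.17 with scaled counts. For Tox, in CD4+CD8- minus CD4-CD8+ (-0.17) it was 0.47 with 20 cells. In CD4+CD8- minus CD4+CD8+ (-0.086) it was 0.21 with 20 cells and -0.54 to 0.42 as each mouse was left out. In CD4-CD8+ minus CD4+CD8+ (0.079) it was -0.13 with 5 cells, -0.26 with 20 cells, -0.098 with lower thresholds, -0.49 with scaled counts, -0.38 with scaled counts and no filter and -0.39 to 0.50 as each mouse was left out. In CD4-CD8- minus CD4+CD8+ (-0.14) it was 0.023 with no filter, 0.46 with 20 cells, 0.24 with higher thresholds, 0.021 with thinned cells and -0.71 to 0.25 as each mouse was left out. In CD4+CD8- minus CD4-CD8- (0.058) it was -0.045 with no filter, -0.058 with 5 cells, -0.25 with 20 cells, -0.34 with higher thresholds, -0.071 with lower thresholds, -0.16 with scaled counts, -0.087 with deep cells left out, -0.34 with thinned cells, -0.22 with scaled counts and no filter and -0.19 to 0.17 as each mouse was left out. In CD4-CD8+ minus CD4-CD8- (0.22) it was -0.72 with 20 cells, -0.21 with higher thresholds, -0.093 with scaled counts, -0.10 with scaled counts and no filter and -0.038 to 0.52 as each mouse was left out. In the gate-by-receptor term (-0.39) it was 0.77 with scaled counts. In whole-mouse PosSelected minus NoSelection (0.0045) it was -0.10 with deep cells left out and -0.25 to 0.32 as each mouse was left out. In whole-mouse OT2 minus OT1 (0.13) it was -0.0037 with deep cells left out, -0.20 with thinned cells and -0.19 to 0.31 as each mouse was left out. In PosSelected minus NoSelection within CD4-CD8- cells (-0.03) it was 0.12 with scaled counts and -0.31 to 0.20 as each mouse was left out. For Cd40lg, in CD4-CD8+ minus CD4+CD8+ (-0.012) it was 0.11 with DESeq2, 0.056 with no filter, 5.76 with higher thresholds and -0.83 to 6.54 as each mouse was left out. In CD4-CD8- minus CD4+CD8+ (0.18) it was -0.41 with 20 cells, -1.04 with lower thresholds, -2.77 with scaled counts, -2.61 with scaled counts and no filter and -1.14 to 6.76 as each mouse was left out. In CD4-CD8+ minus CD4-CD8- (-0.20) it was 0.29 with lower thresholds, 0.79 with scaled counts, 0.85 with scaled counts and no filter and -0.37 to 0.31 as each mouse was left out. In the gate-by-receptor term (-1.03) it was 0.10 with 5 cells and 0.81 with scaled counts. In NegSelected minus PosSelected within CD4-CD8- cells (-1.17) it was -2.57 to 0.25 as each mouse was left out. For Runx3, in CD4-CD8+ minus CD4-CD8- (-0.0016) it was 0.032 with RLE size factors, 0.68 with 20 cells and -0.59 to 0.32 as each mouse was left out. In whole-mouse NegSelected minus PosSelected (0.066) it was -0.25 to 0.27 as each mouse was left out. For Zbtb7b, in the gate-by-receptor term (-0.10) it was 0.11 with higher thresholds and 1.10 with scaled counts. Beside the mice left out that the text names, Runx3 for CD4+CD8- minus CD4-CD8- lost its call with DESeq2 (-1.16), sums of at least 5 (-1.02) or 20 cells (-0.65), thresholds 0.5 higher (-0.84) or lower (-1.05) and without cells above the 95th percentile of UMIs (-0.97), Cd40lg with sums of at least 20 cells (1.23) and without those cells (1.44), and Gata3 for CD4-CD8+ minus CD4-CD8- with DESeq2 (-1.43), sums of at least 5 (-1.51) or 20 cells (-1.33) and thinned cells (-1.54). Cd40lg for whole-mouse OT2 minus OT1 lost its call with thinned cells (1.98), and Runx3 for whole-mouse OT2 minus OT1 gained a call in 7 of 11 settings. Gata3 gained one with thresholds 0.5 lower for CD4+CD8- minus CD4+CD8+ (-1.02) and 0.5 higher for CD4-CD8- minus CD4+CD8+ (1.90). Levels per mouse moved by more than the counting interval in 27 results and stayed within it in 233, and thinned shares moved in 24 and not in 66. Without a filter on low counts, 128 genes were called in CD4+CD8- minus CD4-CD8+, 445 in CD4+CD8- minus CD4-CD8-, 166 in CD4-CD8+ minus CD4-CD8-, 8 in the gate-by-receptor term, 98 for whole-mouse NegSelected minus PosSelected, 280 for whole-mouse PosSelected minus NoSelection, 54 for whole-mouse NegSelected minus NoSelection, 589 for whole-mouse OT2 minus OT1, 36 within CD4-CD8- cells for NegSelected minus PosSelected, 94 within CD4-CD8- cells for PosSelected minus NoSelection and 246 within CD4-CD8- cells for OT2 minus OT1. With sums of at least 5 cells, 5 genes were called in CD4+CD8- minus CD4-CD8+, 176 in CD4-CD8+ minus CD4+CD8+, 146 in CD4+CD8- minus CD4-CD8-, 19 in CD4-CD8+ minus CD4-CD8- and 0 in the gate-by-receptor term. With sums of at least 20 cells, 28 genes were called in CD4+CD8- minus CD4-CD8+, 181 in CD4+CD8- minus CD4-CD8- and 43 in CD4-CD8+ minus CD4-CD8-. With thresholds 0.5 log2 units lower, 12 genes were called in CD4+CD8- minus CD4-CD8+, 48 in CD4-CD8+ minus CD4+CD8+ and 34 in CD4-CD8+ minus CD4-CD8-. With scaled antibody counts, 153 genes were called in CD4+CD8- minus CD4-CD8+, 563 in CD4-CD8- minus CD4+CD8+, 525 in CD4+CD8- minus CD4-CD8-, 171 in CD4-CD8+ minus CD4-CD8-, 0 in the gate-by-receptor term and 2 within CD4-CD8- cells for NegSelected minus PosSelected. Without cells above the 95th percentile of UMIs of their mouse, 31 genes were called in CD4+CD8- minus CD4-CD8+, 155 in CD4+CD8- minus CD4-CD8-, 0 in the gate-by-receptor term, 14 for whole-mouse NegSelected minus PosSelected, 99 for whole-mouse PosSelected minus NoSelection, 224 for whole-mouse OT2 minus OT1, 1 within CD4-CD8- cells for NegSelected minus PosSelected and 4 within CD4-CD8- cells for PosSelected minus NoSelection. With each cell thinned to 1000 UMIs, 4 genes were called in CD4+CD8- minus CD4-CD8+, 156 in CD4+CD8- minus CD4+CD8+, 69 in CD4-CD8+ minus CD4+CD8+, 113 in CD4-CD8- minus CD4+CD8+, 47 in CD4+CD8- minus CD4-CD8-, 12 in CD4-CD8+ minus CD4-CD8-, 3 for whole-mouse NegSelected minus PosSelected and 32 for whole-mouse PosSelected minus NoSelection. With scaled antibody counts and no filter, a setting chosen after seeing the data, 336 genes were called in CD4+CD8- minus CD4-CD8+, 587 in CD4+CD8- minus CD4+CD8+, 757 in CD4-CD8- minus CD4+CD8+, 786 in CD4+CD8- minus CD4-CD8- and 370 in CD4-CD8+ minus CD4-CD8-. With thresholds 0.5 log2 units higher, 225 genes were called in CD4+CD8- minus CD4+CD8+, 157 in CD4-CD8+ minus CD4+CD8+, 208 in CD4-CD8- minus CD4+CD8+ and 47 in CD4-CD8+ minus CD4-CD8-. With DESeq2, 38 genes were called in CD4-CD8+ minus CD4-CD8-, 0 in the gate-by-receptor term, 5 for whole-mouse NegSelected minus PosSelected, 36 for whole-mouse PosSelected minus NoSelection, 3 within CD4-CD8- cells for PosSelected minus NoSelection and 38 within CD4-CD8- cells for OT2 minus OT1. Leaving out each mouse in turn called between 0 and 14 in the gate-by-receptor term, 209 and 358 in CD4+CD8- minus CD4+CD8+, 16 and 63 in CD4+CD8- minus CD4-CD8+, 139 and 282 in CD4+CD8- minus CD4-CD8-, 150 and 317 in CD4-CD8+ minus CD4+CD8+, 29 and 92 in CD4-CD8+ minus CD4-CD8-, 160 and 382 in CD4-CD8- minus CD4+CD8+, 0 and 78 for whole-mouse NegSelected minus NoSelection, 0 and 59 for whole-mouse NegSelected minus PosSelected, 25 and 660 for whole-mouse OT2 minus OT1, 0 and 248 for whole-mouse PosSelected minus NoSelection, 0 and 130 within CD4-CD8- cells for NegSelected minus PosSelected, 20 and 258 within CD4-CD8- cells for OT2 minus OT1, 0 and 259 within CD4-CD8- cells for PosSelected minus NoSelection. The number of samples differs between such settings, and the counts do not say which genes were called. Interaction terms could not be fitted with sums of at least 20 cells, with lower thresholds or without the OT2 NegSelected mouse, since too few OT2 sums were left. RLE size factors left each of these counts within 1.5 times. The gate comparisons were paired within the mouse. By replicate number no paired analysis was possible because each group of receptor and host is 1 mouse, and the shared number marks no pairing. Depth limits Zbtb7b most, with 73 UMIs in all.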
